A study of Mus musculus with 8 samples.

Results

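Expression of 10 macrophage genes was examined in the cortex of newborn mice (postnatal day 0, FVB/N background), 4 libraries from R342X mutants of Phf6 and 4 from wild type. The members were taken by symbol: F13a1, Mrc1, Pf4, Cd163 and Lyve1 as genes of border macrophages, and C1qa, C1qb, C1qc, Cx3cr1 and P2ry12 as genes of microglia. All 10 were found, each under 1 gene identifier, among 53392 genes, and their 27 transcripts were summed per gene. RNA came from frozen cortex without sorting of cells, so the values are those of bulk tissue, in which fewer cells of a type and less RNA per cell cannot be told apart. Phf6 encodes a nuclear PHD finger protein, and R342X is a premature stop codon in it. The labels number the libraries within a genotype and do not say whether each came from a separate animal, so p-values may measure only technical spread between these samples.

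Microglia are the resident macrophages of the brain parenchyma. Border macrophages are their relatives in the meninges, around vessels and in the choroid plexus, and share with them a dependence on the receptor CSF1R. Microglia take part in the removal of synapses, for which complement C1q can act as a tag, and sense neurons and injury through the fractalkine receptor Cx3cr1 and the ADP receptor P2ry12. Border macrophages are known for scavenger and endocytic receptors, among them the mannose receptor Mrc1, the haemoglobin-haptoglobin receptor Cd163 and the hyaluronan receptor Lyve1.

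Libraries held 30469745 to 39453169 estimated reads in mutants and 48841467 to 74266937 in wild type, so each wild-type library was deeper. Phf6 lay between 39.3 and 43.6 CPM (reads scaled to the size of the library) in mutants and between 72.1 and 91.9 CPM in wild type. By the sign of the leading principal component, which took 35.3% of the variance of log2 CPM, the libraries fell into 2 sets: set 1 holds mutant replicates 1 to 3 and wild-type replicate 1, and set 2 holds mutant replicate 4 and wild-type replicates 2 to 4. The labels name no batch, so these sets are a description of the data. They were read from the same values that are compared. Errors and p-values of fits with the set, and errors of differences between sets, do not account for that. Transcripts annotated as retained introns took 3.67% to 3.87% of reads in set 1 and 4.05% to 4.22% in set 2. Genotype and set are partly mixed, and each member's fold change is given with and without a term for the set. Cortical neuron markers summed to 2897 to 3095 TPM (a level scaled to transcript length and library size) in mutants and 3012 to 3159 TPM in wild type, so the tissue carried the markers of its label.

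The DNA just upstream of the start sites is shown for 3 border macrophage genes whose CPM was higher in mutants within both library sets (for Pf4 this does not hold in TPM, with 15.3 in mutant replicate 1 against 16.0 in wild-type replicate 1), and for 2 neighbouring C1q genes, whose levels kept a nearly fixed ratio. The sequences are from RefSeq (GRCm38.p6), 5′ to 3′ on the gene's strand, each ending before the more upstream of the RefSeq and GENCODE starts. Capitals mark GAGGAAG, a core of the sites bound by PU.1, the lineage factor of macrophages, on either strand. They are F13a1 at chr13:37049289-37049463 (minus strand), Mrc1 at chr2:14229164-14229391 (plus), Pf4 at chr5:90772185-90772434 (plus), C1qc at chr4:136893066-136893164 (minus) and C1qb at chr4:136886201-136886450 (minus).
F13a1: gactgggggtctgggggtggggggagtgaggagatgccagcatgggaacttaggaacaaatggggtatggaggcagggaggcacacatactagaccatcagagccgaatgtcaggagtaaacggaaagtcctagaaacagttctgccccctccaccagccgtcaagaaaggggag
Mrc1: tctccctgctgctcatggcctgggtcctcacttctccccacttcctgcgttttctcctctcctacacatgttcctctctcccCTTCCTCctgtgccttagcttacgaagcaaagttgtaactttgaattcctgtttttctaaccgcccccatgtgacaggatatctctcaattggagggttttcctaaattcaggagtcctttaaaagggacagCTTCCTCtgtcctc
Pf4: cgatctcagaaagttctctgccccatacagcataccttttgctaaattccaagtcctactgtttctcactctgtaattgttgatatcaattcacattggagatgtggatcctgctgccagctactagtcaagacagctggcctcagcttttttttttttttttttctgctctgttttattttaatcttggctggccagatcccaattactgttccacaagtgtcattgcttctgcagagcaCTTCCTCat
C1qc: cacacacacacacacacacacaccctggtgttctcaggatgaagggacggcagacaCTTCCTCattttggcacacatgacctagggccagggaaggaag
C1qb: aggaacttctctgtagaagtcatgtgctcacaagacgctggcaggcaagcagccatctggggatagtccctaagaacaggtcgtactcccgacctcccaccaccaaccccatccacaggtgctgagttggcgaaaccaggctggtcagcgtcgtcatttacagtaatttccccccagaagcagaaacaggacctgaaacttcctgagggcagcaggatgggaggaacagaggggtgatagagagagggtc
In windows of 300 bases, from 250 before to 50 after the RefSeq start, GAGGAAG was present in 4 of the 8 members with an entry (F13a1, Mrc1, Pf4 and C1qc) and in 13.6% of all 32851 windows. Each member is counted once, by the window nearest the start of its main transcript, whereas the share is per window. The window of P2ry12, which has no match, lies 42726 bases from that start. The match of F13a1 near its main transcript lies past the start shown, so its sequence above has no capitals; an upstream start of F13a1 has a window of its own with matches. TGCTGAC, part of the site of MAF factors, was in none of the 8 and in 4.67% of all windows, both strands read. A match of letters is a description and not a binding site.

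The complement genes stood highest among the members and Cd163 lowest. In wild type the level was 20.5 ± 1.18 TPM for C1qa, 16.7 ± 1.36 TPM for C1qc, 16.6 ± 1.46 TPM for C1qb and 15.4 ± 2.89 TPM for Pf4, which encodes the chemokine platelet factor 4 (SD, n = 4 for each level). Cx3cr1 at 8.08 ± 1.76 TPM, Mrc1 at 7.91 ± 0.72 TPM, P2ry12 at 7.38 ± 2.26 TPM and F13a1 at 6.43 ± 1.69 TPM followed. Lyve1 stood at 4.21 ± 1.04 TPM and Cd163 at 0.83 ± 0.19 TPM. The levels of C1qc, C1qb and Pf4 did not differ beyond their spread, nor did those of Cx3cr1, Mrc1, P2ry12 and F13a1. Against a median of 9.55 TPM over the 20097 genes tested, 63.4% of genes lay below C1qa and 18.1% below Cd163. Cd163 rested on as few as 37.5 estimated reads in a library, the fewest of any member.

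**Figure D1:**
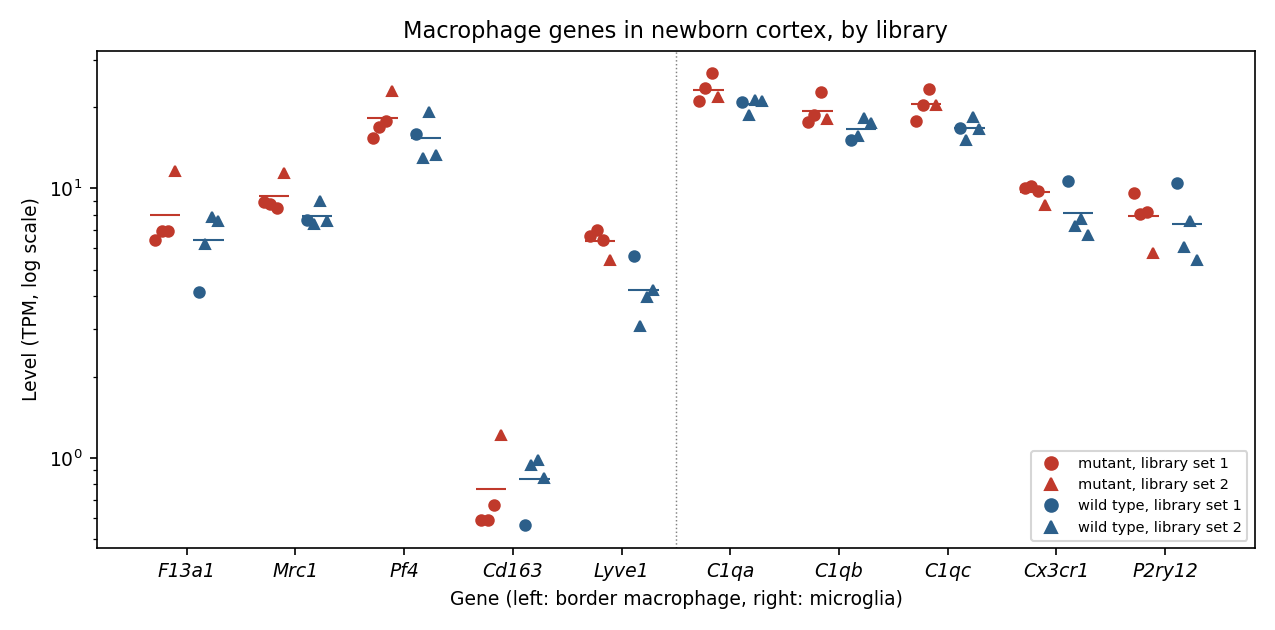
Level of each gene (TPM, log axis) in the 8 libraries, 4 mutant (red) and 4 wild type (blue). Circles are library set 1, triangles library set 2, and horizontal lines are means. The mutant triangle, replicate 4, is the highest mutant library for F13a1, Mrc1, Pf4 and Cd163 and the lowest for Lyve1, Cx3cr1 and P2ry12.

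With genotype as the only term, none of the 10 genes was called (quasi-likelihood F test of edgeR, p adjusted over all genes by the method of Benjamini and Hochberg, under 0.05), against 0.0199% of all genes. At an unadjusted p under 0.05, 1 member was higher in mutants, Lyve1, against 6.89% of all genes. DESeq2 called 1 member, also Lyve1, against 1.51% of genes called higher. Of the border macrophage genes 4 of 5 had a log2 fold change above 0 (median 0.21), and of the microglia genes 5 of 5 (median 0.16), beside 50.3% of all genes (median 0.00). With the library set as a term F13a1 alone was called, against 0.239% of genes called higher. In that fit 5 of 5 border macrophage genes were above 0 (median 0.32) and 4 of 5 microglia genes (median 0.13), beside 48.5% of all genes. At an unadjusted p under 0.05, 4 of 5 border macrophage genes (all but Cd163) and 1 of 5 microglia genes (C1qc) were higher in mutants in that fit, against 6.48% of all genes. In CPM, none of the 10 had every mutant library above every wild-type library, against 2.95% of all genes. With replicate number as a block no member was called, against 0.0995% of all genes.

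**Figure D2:**
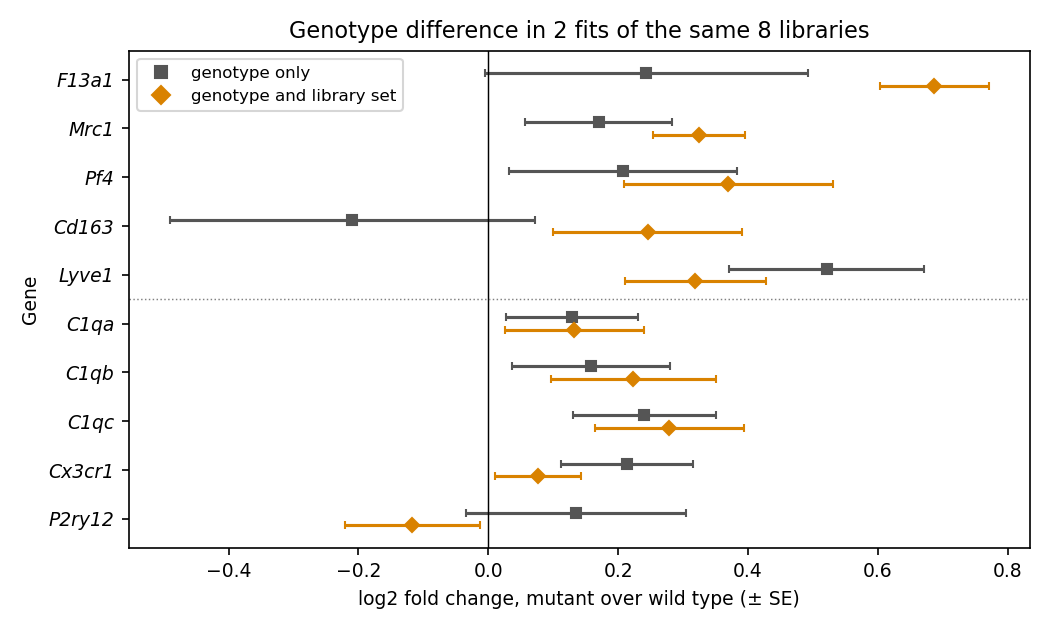
Log2 fold change of mutant over wild type with its standard error for each gene, with genotype only (squares) and with genotype and library set (diamonds). F13a1 moves from 0.24 to 0.69 between the fits, Cd163 from -0.21 to 0.25 and P2ry12 from 0.14 to -0.12.

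F13a1 encodes the catalytic A subunit of coagulation factor XIII, a crosslinking enzyme that tissue macrophages make as well. Mutant replicates 1 to 4 held 13.2, 14.1, 14.9 and 25.3 CPM. Wild-type replicates 1 to 4 held 8.45, 14.1, 17.2 and 17.1 CPM. Over all libraries the genotypes overlapped, whereas within set 1 each mutant stood above the wild-type library and within set 2 the mutant stood above each wild-type library. With genotype only, the log2 fold change was 0.24 ± 0.25 (SE; edgeR adjusted p = 0.657), and without mutant replicate 4 it was -0.02 (adjusted p = 0.964). Without wild-type replicate 1 it was 0.07 (adjusted p = 0.844). With the library set as a term F13a1 rose by 0.69 ± 0.08 on the log2 scale (edgeR adjusted p = 0.00689), with differences of 0.73 in set 1 and 0.65 in set 2. Leaving out each library in turn from this fit gave 0.64 to 0.74. The call held in 7 of 8 such fits and was lost without wild-type replicate 1 (0.66, adjusted p = 0.0671), the lone wild-type library of set 1. Without mutant replicate 4, the lone mutant of set 2, the value was 0.74, near the threshold (edgeR adjusted p = 0.0488). In both of these fits the genotypes meet in 1 set only, where 1 side is a lone library. Set 2 stood 0.89 ± 0.08 above set 1 for this gene (log2, SE, genotype held), though the sets were read from the same data. The authors' deposited table gives F13a1 a log2 fold change of 0.66 with a standard error of 0.11 and an adjusted p of 1.18e-07, under a model that is not given in the sources used here.

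F13a1 (ENSMUSG00000039109.16) lies on the minus strand of chromosome 13 from 36867178 to 37050244 in GRCm38, and its main transcript has 15 exons. That transcript carried 95.7% ± 0.78 of F13a1 TPM in wild type and 96.9% ± 1.18 in mutants (SD, n = 4 each). The gene overlaps the antisense genes Gm49144 and Gm30489, and whether reads were assigned by strand is not given in the sources used here.

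Mrc1 (chromosome 2, 14229392 to 14332057, plus strand, 30 exons) stood at 24.6, 24.2, 24.2 and 33.4 CPM in the mutants, replicates 1 to 4 in order, and at 21.4, 22.7, 26.7 and 23.7 CPM in the wild type. The lowest wild-type library was again replicate 1 and the highest mutant replicate 4. The log2 fold change was 0.17 ± 0.11 with genotype only (edgeR adjusted p = 0.503) and 0.32 ± 0.07 with the library set (adjusted p = 0.0596). Within the sets the difference was 0.19 and 0.46. Without mutant replicate 4 the second value was 0.19 (edgeR adjusted p = 0.440). The authors' deposited table lists Mrc1 at 0.29 with a standard error of 0.10 and an adjusted p of 0.0110; 1.46% of the genes with an adjusted p in that table are called higher.

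Lyve1 (chromosome 7, 110850607 to 110863239, minus strand, 6 exons), which lymphatic endothelium also makes, showed another order of libraries. It stood at 9.88, 10.3, 9.87 and 7.79 CPM in mutants and at 8.24, 5.01, 6.23 and 6.92 CPM in wild type. Here mutant replicate 4 was the lowest mutant library and wild-type replicate 1 the highest of its genotype, and only these 2 libraries overlapped across genotypes. The log2 fold change was 0.52 ± 0.15 with genotype only (edgeR adjusted p = 0.244; DESeq2 adjusted p = 0.0367) and 0.32 ± 0.11 with the library set (edgeR adjusted p = 0.207). Lymphatic endothelial genes, 4 of 4 tested, had a median log2 fold change of -0.00 and summed to 18.5 to 20.8 in mutants and 19.7 to 24.8 TPM in wild type. Of these, the chemokine gene Ccl21a, which has near-identical copies, stood at -0.52 ± 0.12 (edgeR adjusted p = 0.179).

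Pf4 (chromosome 5, 90772435 to 90773383, plus strand, 3 exons) stood at 3.01, 3.52, 3.89 and 4.87 CPM in mutants and at 2.99, 2.88, 4.24 and 3.08 CPM in wild type. Its log2 fold change was 0.21 ± 0.18 with genotype only and 0.37 ± 0.16 with the library set (edgeR adjusted p = 0.589 and 0.334). Platelets and megakaryocytes also make Pf4 and F13a1. Of 9 platelet markers only Itga2b, Gp1bb and Clec1b had enough reads to be tested, and none was called in either fit. The other platelet markers, among them Ppbp, Gp9 and Gp6, were at most 0.278 TPM in any library, against a mean of 18.3 in mutants and 15.4 TPM in wild type for Pf4. Of the 3 tested platelet markers 2 were above 0 in either fit, with medians of 0.03 with genotype only and 0.24 with the library set. The marker below 0 with genotype only was Clec1b, at -0.69 ± 0.37 (edgeR adjusted p = 0.420).

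Cd163 (chromosome 6, 124304656 to 124330527, plus strand, 17 exons) followed the library sets more than the genotype. It stood at 1.23, 1.21, 1.46 and 2.71 CPM in mutants and at 1.21, 2.09, 2.24 and 2.05 CPM in wild type, so all of set 1 lay below all of set 2. The log2 fold change was -0.21 ± 0.28 with genotype only and 0.25 ± 0.15 with the library set (edgeR adjusted p = 0.738 and 0.503), and set 2 stood 0.94 ± 0.15 above set 1. The main transcript took 55.3% ± 38.1 of Cd163 TPM in wild type (SD, n = 4) and was at 0 reads in 1 wild-type library, so only the gene sum is used. The authors' deposited table lists Lyve1 at 0.25 (adjusted p = 0.102), Pf4 at 0.02 (adjusted p = 0.510) and Cd163 at 0.01 (adjusted p = 0.711) on the log2 scale. Its folds and errors do not by themselves give its p-values. Lyve1, for one, has a standard error of 0.18 and an unadjusted p of 0.00431 there. The size of the folds listed there, those of F13a1 and Mrc1 included, is therefore not comparable with that of the edgeR folds.

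C1qa, C1qb and C1qc encode the A, B and C chains that assemble into C1q, the recognition molecule of the classical complement pathway. They lie side by side on the minus strand of chromosome 4, from 136880129 to 136898803 in GRCm38, within 18.7 kb that hold no other protein-coding gene. C1qa stood at 9.23, 10.4, 12.4 and 10.2 CPM in mutants and at 9.23, 8.96, 10.1 and 10.2 CPM in wild type. C1qc stood at 9.23, 10.7, 12.8 and 11.2 CPM in mutants and at 8.76, 8.47, 10.4 and 9.55 CPM in wild type, and C1qb between 8.35 and 11.5 CPM in mutants and between 7.22 and 9.41 CPM in wild type. Mutant replicate 3 was the highest library for all 3 genes, and the genotypes overlapped for each.

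The log2 fold changes were 0.13 ± 0.10 for C1qa, 0.16 ± 0.12 for C1qb and 0.24 ± 0.11 for C1qc with genotype only (edgeR adjusted p = 0.564, 0.557 and 0.371). With the library set they were 0.13 ± 0.11, 0.22 ± 0.13 and 0.28 ± 0.11 (adjusted p = 0.649, 0.484 and 0.304). The 3 chains kept a nearly fixed ratio from library to library. C1qa held 1.16 to 1.39 times the TPM of C1qb and 1.07 to 1.27 times that of C1qc, and the SD of the log2 ratio over the 8 libraries was 0.08, 0.09 and 0.09 for the 3 pairs. Over the 10 microglia pairs the median of this SD was 0.23, over the 10 border macrophage pairs 0.38 and over the 25 mixed pairs 0.37. The microglia median holds the 3 C1q pairs, while the C1q genes against P2ry12 had SDs of 0.34 to 0.39, and C1qc was steadier with the border macrophage genes Mrc1 (0.18) and Pf4 (0.20). Mrc1 and Pf4 were the border macrophage pair with the steadiest ratio (SD 0.13).

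Cx3cr1 and P2ry12, the receptors of the microglia group, were higher in set 1 than in set 2. Cx3cr1 (chromosome 9, 119901616 to 120069879, minus strand) stood at 19.8, 20.2, 20.2 and 18.1 CPM in mutants and at 20.7, 15.7, 16.4 and 14.8 CPM in wild type. All wild-type libraries but replicate 1 lay below each mutant in this gene sum. Another transcript than the main one took 103 estimated reads (1.27 TPM) in wild-type replicate 1 and none in any other library. On the main transcript that library held 9.29 TPM, below mutant replicates 1 to 3 (lowest 9.82 TPM). Mutant replicate 4, at 8.65 TPM, lay below that library but above wild-type replicates 2 to 4 (highest 7.70 TPM). The log2 fold change of Cx3cr1, from the gene sum, was 0.21 ± 0.10 with genotype only and 0.08 ± 0.07 with the library set (edgeR adjusted p = 0.382 and 0.673). P2ry12 (chromosome 3, 59216272 to 59262871, minus strand) stood at 7.60, 6.0, 7.09 and 5.10 CPM in mutants and at 7.86, 5.30, 5.41 and 5.03 CPM in wild type. Its log2 fold change was 0.14 ± 0.17 and turned to -0.12 ± 0.10 with the library set (edgeR adjusted p = 0.719 and 0.683). Set 2 stood below set 1 by -0.29 ± 0.07 for Cx3cr1 and -0.52 ± 0.10 for P2ry12 (log2, SE, genotype held). The span of Cx3cr1 overlaps other protein-coding genes on both strands, among them Wdr48 and Gorasp1. P2ry12 lies inside Med12l, which is on the opposite strand, and strand use is not given in the sources used here. Its main transcript took 60.8% ± 7.35 of P2ry12 TPM in wild type and 62.6% ± 5.63 in mutants (SD, n = 4 each). In the authors' deposited table the 5 microglia genes have log2 fold changes from -0.02 (P2ry12) to 0.05 (C1qc), with adjusted p from 0.286 (C1qc) to 0.830 (Cx3cr1). These folds too are not comparable in size with the edgeR folds: C1qc has a standard error of 0.08 but an unadjusted p of 0.0285 there.

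The border macrophage group was set against the microglia group through the mean log2 CPM of its 5 genes in each library. The border macrophage mean minus the microglia mean was -0.62, -0.59, -0.73 and -0.03 in mutant replicates 1 to 4 and -0.82, -0.48, -0.33 and -0.38 in wild-type replicates 1 to 4. The genotypes overlapped, with means of -0.49 ± 0.32 in mutants and -0.50 ± 0.22 in wild type (SD, n = 4 each), a difference of 0.01. Within set 1 the mutants stood 0.17 above wild type on this measure and within set 2 by 0.37, and in each set no mutant overlapped wild type. Split by group, over all libraries the border macrophage mean was 0.18 higher in mutants (pooled SD 0.23) and the microglia mean 0.17 higher (pooled SD 0.11). The border macrophage mean overlapped between genotypes. The microglia mean just did not, with the lowest mutant library at 3.317 and the highest wild-type library at 3.314. Within the sets, the border macrophage mean differed by 0.30 in set 1 and 0.47 in set 2, and the microglia mean by 0.13 and 0.10. Within both sets, 4 of 5 border macrophage genes had every mutant library above every wild-type library in CPM (all but Cd163), as had 1 of 5 microglia genes (C1qc), beside 10.2% of all genes tested. In TPM the genes differed in part: 4 of 5 border macrophage genes (all but Pf4) and 2 of 5 microglia genes (C1qa and C1qc) met this, beside 10.6% of all genes. In CPM it also held for 5 of 5 endothelial, 7 of 9 meningeal fibroblast and 6 of 7 partner genes of the lists below. Among the other macrophage lists below, 3 of 10 border macrophage genes, 0 of 9 microglia genes and 3 of 16 shared genes met it. Set 1 has a lone wild-type library and set 2 a lone mutant library, so neither within-set value has a replicate on that side.

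**Figure D3:**
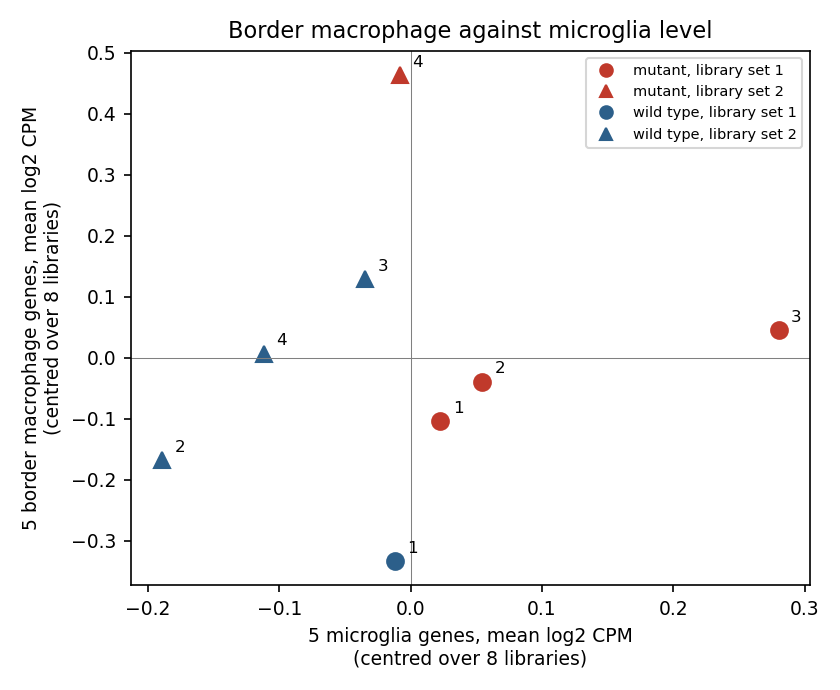
Mean log2 CPM of the 5 border macrophage genes against that of the 5 microglia genes, each centred over the 8 libraries, with the replicate number beside each point. Mutant replicate 4 is highest on the border macrophage axis at 0.46 and wild-type replicate 1 lowest at -0.33, while mutant replicate 3 is highest on the microglia axis at 0.28.

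Further genes of the same cells were taken from fixed lists. Of 10 other border macrophage genes none was called in either fit; 7 were above 0 with genotype only (median 0.16) and 9 with the library set (median 0.27). Dab2, an endocytic adaptor, stood at 0.21 ± 0.08 and Stab1, a scavenger receptor, at 0.19 ± 0.11 (edgeR adjusted p = 0.321 and 0.455), and with the library set at 0.26 ± 0.08 and 0.32 ± 0.08 (adjusted p = 0.159 and 0.0886). Of 9 other microglia genes none was called, with 5 above 0 in either fit and medians of 0.07 and 0.03. Tmem119, a microglial surface protein, stood at 0.16 ± 0.12 (edgeR adjusted p = 0.540). Of 16 genes that both kinds of macrophage share, 12 were above 0 (median 0.10) and none was called, with the Fc receptor Fcgr3 at 0.25 ± 0.11 (edgeR adjusted p = 0.351) and Csf1r at 0.13 ± 0.08 (adjusted p = 0.460). Of 6 tested genes of activated neonatal microglia 4 were above 0 (median 0.05) and none was called.

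Among partners and complement genes of the members 1 was called, and only with the library set, against 0.239% of all genes called higher in that fit. Of the 7 tested partner genes all were above 0 with genotype only (median 0.19), beside 50.3% of all genes, and none was called. With the library set Itgb3, the integrin beta 3 subunit, rose by 0.75 ± 0.13 (edgeR adjusted p = 0.0311). Cx3cl1, the neuronal ligand of Cx3cr1, stood at 0.20 ± 0.05 in both fits (edgeR adjusted p = 0.203 and 0.117). The CSF1R ligands Il34 and Csf1 stood at 0.19 ± 0.14 and 0.10 ± 0.09 (adjusted p = 0.521 and 0.605). F13b, the carrier subunit of factor XIII, was at most 0.0117 TPM in any library. Of 9 complement genes beside C1q, 5 were above 0 (median 0.08) and none was called; the lectin pathway protease Masp1 stood at -0.25 ± 0.06 and the classical pathway protease C1s1 at -0.54 ± 0.19 (edgeR adjusted p = 0.191 and 0.291).

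Genes of the meninges and vessels, where border macrophages live, were on average highest in mutant replicate 4 and lowest in wild-type replicate 1, as was the mean of the border macrophage genes. Of 9 meningeal fibroblast genes 8 were above 0 in either fit, with medians of 0.14 and 0.35, and none was called with genotype only. With the library set 3 were called higher, against 0.239% of all genes. These were Aldh1a2 (0.48 ± 0.06), Igf2 (0.57 ± 0.09) and Ptgds (0.39 ± 0.08; edgeR adjusted p = 0.0110, 0.0295 and 0.0422). Of 5 endothelial genes 5 were above 0 in either fit (medians 0.09 and 0.26) and none was called, with Flt1 at 0.14 ± 0.05 (edgeR adjusted p = 0.313 with genotype only). The mean of the meningeal list was 0.42 above its centre in mutant replicate 4 and -0.30 in wild-type replicate 1, and that of the endothelial list 0.31 and -0.24, beside 0.46 and -0.33 for the border macrophage genes. Other libraries did not all follow: in mutant replicate 3 the border macrophage mean was 0.05 and the meningeal and endothelial means -0.11 and -0.06, and Lyve1 had its lowest mutant value in replicate 4. Summed meningeal markers ran from 967 to 1200 TPM in mutants and from 777 to 945 TPM in wild type, and endothelial markers from 162 to 203 TPM and from 144 to 172 TPM. Such sums weigh the most abundant genes most. In CPM no single meningeal gene separated the genotypes over all libraries. The centred mean of the meningeal list overlapped, from -0.11 to 0.42 in mutants and from -0.30 to 0.14 in wild type. The defining meningeal markers Col1a1 and Dcn were far from 0 (39.8 and 33.6 TPM on average in mutants), and the part of these tissues in the level of F13a1 was not tested.

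Markers of other blood cells were low or overlapped between the genotypes. Monocyte and granulocyte markers summed to 9.08 to 14.5 in mutants and 8.17 to 12.6 TPM in wild type, with Ccr2 at most 0.271 TPM in any library. The 5 lymphocyte markers, none with enough reads to be tested, summed to at most 0.646 TPM. Of 3 tested mast cell markers none was called (median 0.17), and Kit, which neurons also express, made up most of their sum. Red blood cell genes, 6 tested and none called, summed to 4142 to 8057 in mutants and 2432 to 10447 TPM in wild type. Their centred mean was highest in wild-type replicate 2 (0.98), ahead of mutant replicate 4 (0.61), and lowest in wild-type replicates 1 (-1.19) and 3 (-0.59). Choroid plexus genes differed by -0.16 in set 1 and 0.46 in set 2, and none of 5 was called. The part of these lists in the results above was not tested.

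**Figure D4:**
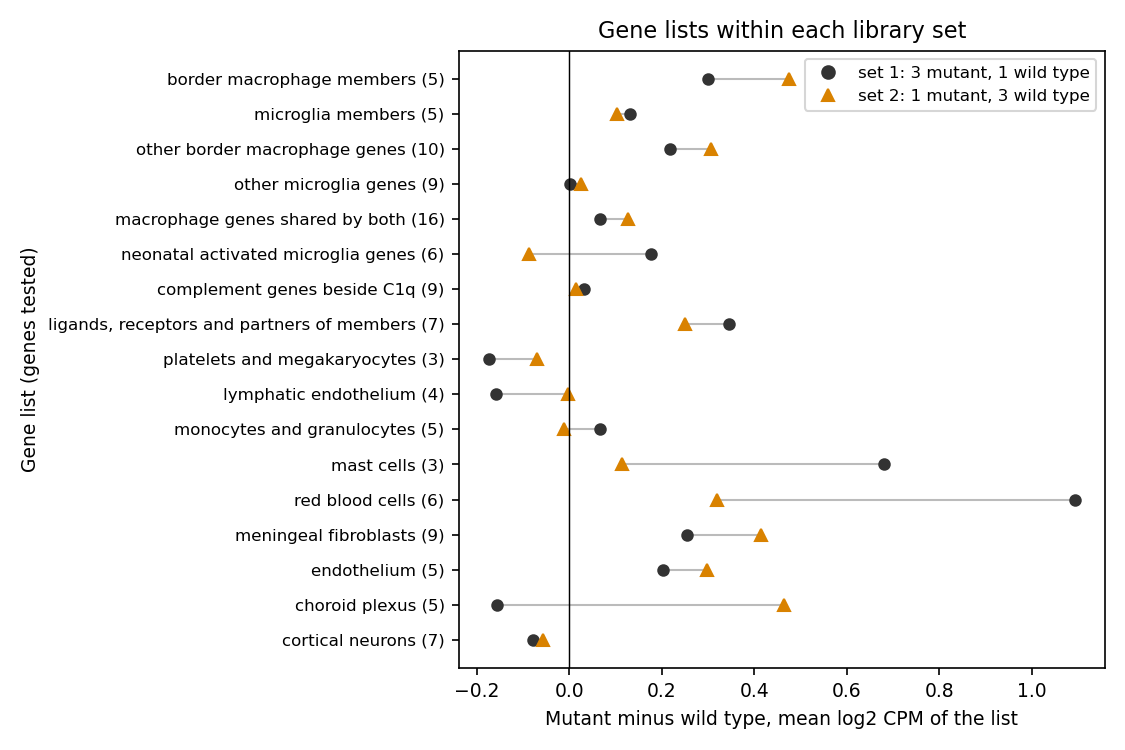
Mutant minus wild type in the mean log2 CPM of each gene list within library set 1 (circles) and set 2 (triangles), with the number of tested genes in brackets. Border macrophage genes (0.30 and 0.47), meningeal fibroblast genes (0.26 and 0.42) and endothelial genes (0.20 and 0.30) lie above 0 in both sets, as do red blood cell genes (1.09 and 0.32), mast cell genes (0.68 and 0.11), partners of the members (0.34 and 0.25) and the microglia genes of the 10 (0.13 and 0.10), and other microglia genes lie near 0 (0.00 and 0.03).

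The genes most like each group in their course over the 8 libraries were ranked among 12743 genes by the mean absolute difference of profiles scaled to an SD of 1. Nearest to the border macrophage mean were Lamb2 (0.21 SD), Slc38a3 (0.22), Vwf (0.25), Fcgrt (0.25) and Col4a5 (0.27). Of the group itself, Mrc1 stood at 0.27, F13a1 at 0.33, Pf4 at 0.38, Cd163 at 0.61 and Lyve1 at 1.06, though each mean contains its own members. Lamb2 and Col4a5 encode basement membrane chains and Vwf the von Willebrand factor of endothelium, whereas Slc38a3 and Fcgrt encode proteins of neither kind. Nearest to the microglia mean were Bin1 (0.19 SD), Tcerg1l (0.22), Htr7 (0.24), Ccdc28b (0.25) and Galnt16 (0.27), against 0.39 for C1qa and 0.76 for P2ry12. All these profiles share the same 8 libraries and their 2 sets.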

How the data were processed

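The members and gene lists were chosen with earlier results of these data known. The submitters' processing notes name Salmon 0.12.0, DESeq2 and, as genome build, GRCm38. The deposited library files give, per the file headers, an estimated count (expected count) and a TPM value for each transcript. The authors' deposited table holds, per gene, the mean normalized count (a signal), the log2 fold change and its error, the p-value and its adjusted form. The sources used here do not give strand use, bias options, the authors' model or whether the authors' folds were shrunken towards 0.

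Estimated counts and TPM were summed per gene, and the counts rounded. The comparison of genotypes used edgeR 4.0.16, run in R 4.3.3 (TMM scaling, default filter on low counts, quasi-likelihood F test, two-sided, 20097 genes, Benjamini-Hochberg adjusted p under 0.05). Standard errors come from the fold and its F statistic. The script was tested on simulated data. A fit with a term for the library set, taken from the sign of the leading principal component (log2 CPM, prior count 2), is an alternative, as are DESeq2 1.42.0, limma 3.58.1 on log2(TPM + 0.5), other filters, RLE scaling, thinning to the smallest library, replicate number as a block and each library left out. Named genes are the 10 members, genes of each list that were called or had its smallest p-values, and the 5 nearest profiles (mean log2 CPM of at least 1). Some further list genes (Csf1r, Il34, Csf1, F13b, Itga2b, Gp1bb, Ppbp, Gp9, Gp6, Ccr2, Col1a1 and Dcn) are given outside this rule, as defining markers or partners. Coordinates are from GENCODE M21 (GRCm38). Of 10 members, 8 had a RefSeq promoter window.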

Additional observations from a re-analysis of the deposited data

Results flagged for a closer look

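Within a genotype, 1 library stood far from the other 3 in 6 of the 26 groups of values examined. Chance gives about 1 in 20 for a group on its own. The groups share the same libraries and are not independent, so no excess over chance can be read from this count. Mutant replicate 4 stood apart for F13a1 (25.3 CPM), Mrc1 (33.4 CPM), Cd163 (2.71 CPM) and Lyve1 (7.79 CPM). It was the highest mutant library for the first 3 genes and the lowest for Lyve1. Wild-type replicate 3 stood apart for Pf4 (4.24 CPM) and wild-type replicate 1 for P2ry12 (7.86 CPM), each the highest of its genotype. Mutant replicate 4 and wild-type replicate 1 are the lone libraries of their genotype in their library sets.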

How the results depend on the processing

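With genotype only, 4 genes were called over all genes, 402 by DESeq2, 13 without a filter on low counts, 121 with the library set and 20 with the replicate block. The count ran from 3 to 699 with each library left out (without mutant replicate 4 it was 699, and 14 without wild-type replicate 1), and for the fit with the library set it was 38, 16, 45 and 53 when mutant replicates 1 to 4 were dropped in turn and 19, 56, 66 and 126 when wild-type replicates 1 to 4 were. Dropping libraries from that fit, and TPM in place of CPM within the library sets, were added after seeing the data. Among the members, 0 were called with genotype only and in each fit that left out 1 library from it; 1 was called by DESeq2 (Lyve1) and 1 with the library set (F13a1), and 0 to 1 with the library set and each library left out. The border macrophage minus microglia difference was 0.01, ran from -0.18 to 0.11 with each library left out, was 0.27 with the library set and ran from 0.16 to 0.36 with the library set and each library left out (0.30 without mutant replicate 3). It could not be computed at 5 CPM in 4 libraries, since Pf4 and Cd163 fell below that. The replicate block called none of the members, and the difference stayed at 0.01. Same-numbered libraries did not deviate together in every pair (correlations of 0.24, -0.03, -0.08 and 0.32). The higher values belong to replicates 1 and 4, whose libraries share a library set across genotypes. These correlations therefore cannot settle whether the numbers mark pairs, and the labels do not say. Thinning all libraries to the smallest total left 4 calls and a difference of -0.01. Depth limits Cd163 and Pf4 most.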
